A study of Homo sapiens with 27 samples.

Results

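The genes described here are the neighbours of 3 long non-coding RNAs (lncRNAs) that were knocked down in REH cells, together with the lncRNAs themselves. A gene of any biotype was taken as a member if it overlapped one of 3 windows of the GRCh38 genome, each reaching 500 kb to either side of a target, and had at least 1 count on the sense strand in any library. The windows were chr10:99026948-100028467 around lnc-NKX2-3-1, chr18:72368388-73381404 around lnc-TIMM21-5 and chr1:176892667-178420152 around lnc-ASTN1-1. They held 29 members of the 34666 genes with any count, 15 on chromosome 10, 6 on chromosome 18 and 8 on chromosome 1. By annotation 13 of them were protein-coding, 8, 1 and 4 in the same order, and the rest were lncRNAs, pseudogenes and a microRNA. Of the protein-coding genes in the windows, HPSE2 and CNNM1 (chromosome 10) and CBLN2 (chromosome 18) had no count in any of the 27 libraries and were not members.

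REH is an established line of B-cell precursor leukemia with an ETV6/RUNX1 fusion gene. All cells were harvested after 72 h, either in medium alone or with 10 µM of a locked nucleic acid (LNA) GapmeR taken up without a transfection reagent. The controls were 2 libraries of medium and 3 of a non-targeting GapmeR (NTC). Each lncRNA was targeted with 2 GapmeRs. For lnc-NKX2-3-1 there were 2 libraries of GapmeR1 and 3 of GapmeR2. lnc-TIMM21-5 had 3 of either, and lnc-ASTN1-1 had 3 and 2. The series also held 3 and 3 libraries for a 4th target, lnc-RTN4R-1 on chromosome 22, which served for comparison. Every group was therefore 1 cell line under 1 dose and 1 time point, and fewer cells of a kind and less RNA per cell cannot be told apart in such bulk libraries.

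A GapmeR is a short antisense oligonucleotide with LNA ends and a DNA centre. It pairs with an RNA, and RNase H then cuts that RNA, often while it is still in the nucleus. Some lncRNAs act on the genes beside them, through the RNA, through the act of transcription or through enhancer elements in the locus, while others do not. A GapmeR acts on the RNA, but the levels of the neighbours after knockdown do not separate these routes. The act of transcription and enhancer elements were not tested separately.

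The GapmeRs are shown first, because the place where each pairs with its target decides which RNAs of a window it can reach. Sequences are from the study's oligonucleotide list, 5′ to 3′, and the capitals mark the bases that both GapmeRs against lnc-TIMM21-5 have in common.
lnc-NKX2-3-1 GapmeR1: tgctctgtgcggattg
lnc-NKX2-3-1 GapmeR2: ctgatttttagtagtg
lnc-TIMM21-5 GapmeR1: AATTTTGCatttggta
lnc-TIMM21-5 GapmeR2: gtcactttAATTTTGC
lnc-ASTN1-1 GapmeR1: taatctgccaggagtg
lnc-ASTN1-1 GapmeR2: gtctgaagtaatgga
NTC: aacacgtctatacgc

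Their sites in the target RNAs, read from the GRCh38 genome on the strand of the target, are shown in capitals with 7 bases on either side. The lnc-ASTN1-1 GapmeR1 site is read from a spliced GENCODE transcript, since this oligonucleotide had no exact match in the genome.
lnc-NKX2-3-1 GapmeR1, chr10:99528207-99528222, plus strand: aaatcagCAATCCGCACAGAGCAggcagcc
lnc-NKX2-3-1 GapmeR2, chr10:99528191-99528206, plus strand: gttacccCACTACTAAAAATCAGcaatccg
lnc-TIMM21-5 GapmeR1, chr18:72881263-72881278, plus strand: tctggaaTACCAAATGCAAAATTaaagtga
lnc-TIMM21-5 GapmeR2, chr18:72881271-72881286, plus strand: accaaatGCAAAATTAAAGTGACtacaagc
lnc-ASTN1-1 GapmeR2, chr1:177576910-177576924, minus strand: aaatccaTCCATTACTTCAGACagatgaa
lnc-ASTN1-1 GapmeR1, spliced site: aaactccCACTCCTGGCAGATTAaatgaaa

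Both lnc-NKX2-3-1 sites lay in exon 2 and were directly adjacent, so that together they covered 1 unbroken stretch of its only annotated transcript. The lnc-TIMM21-5 sites overlapped by 8 bases in the last exon and were present in 4 of 4 annotated transcripts. The lnc-ASTN1-1 GapmeR1 site joined 12 bases of one exon to 4 of the next (CACTCCTGGCAG and ATTA), and only a spliced RNA holds it. Both lnc-ASTN1-1 sites were in 8 of 12 annotated transcripts. Outside the targets no member held an exact match to any GapmeR, or a match with 1 mismatch, and the non-targeting GapmeR had no exact match in the genome.

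Sense-strand totals were 14627110 to 22750945 counts per library. The markers of a B-cell precursor were present, 11 of 12 at a mean above 1 CPM (counts relative to the size of the library) with VPREB1 as the exception, while 0 of 4 erythroid markers reached that level. TRAC did among 5 T cell markers, whose sum was 7.83 to 24.0 CPM. COL1A1 did among 4 stromal or epithelial markers, whose sum was 6.14 to 6.68 CPM with lnc-NKX2-3-1 GapmeR1 and 7.74 to 17.2 CPM in the other libraries. Of 5 myeloid markers, MPO and CSF1R did. Their summed level was 163.9 to 196.5 CPM with lnc-NKX2-3-1 GapmeR1 and 293.5 to 448.8 CPM with lnc-RTN4R-1 GapmeR2, nearly all of it MPO, against 82.4 to 152.3 CPM in the other 22 libraries, while ELANE had no count in any library. The myeloid sum therefore moved with 2 of the groups used below and the stromal sum with 1 of them. The B-cell precursor sum was 5808 to 6070 CPM in medium and 5386 to 5694 CPM with the NTC. It was 6079 to 6396 and 5022 to 5497 CPM with lnc-NKX2-3-1 GapmeR1 and GapmeR2. With lnc-RTN4R-1 GapmeR1 and GapmeR2 it was 6061 to 6202 and 5822 to 6071 CPM. The part of these sums in the results was not tested. Levels are CPM with library sizes scaled by TMM. A change was called when the edgeR quasi-likelihood test, adjusted by Benjamini-Hochberg over all genes of the fit, gave a p under 0.05, and intervals are 95% confidence intervals of the log2 fold change.

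**Figure D1:**
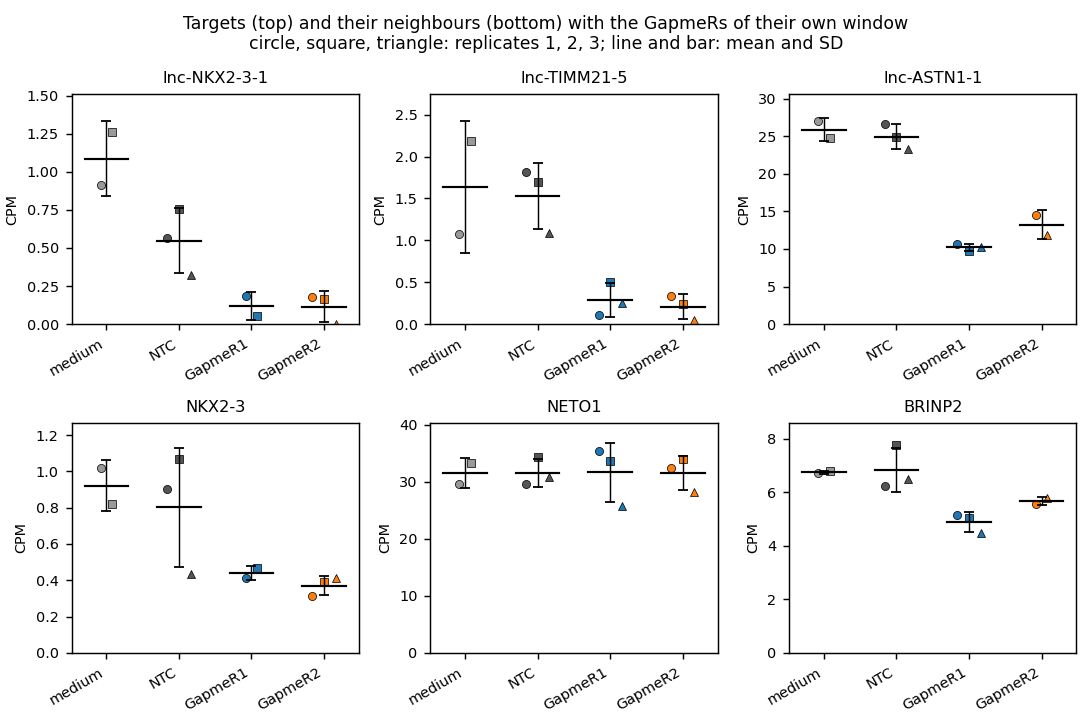
Level in CPM (vertical axes, from 0) of the 3 target lncRNAs (top) and of NKX2-3, NETO1 and BRINP2 (bottom) in each library of medium, NTC and both GapmeRs of the same window, with the mean and SD of each group. Each target lay below all 5 controls in every library of its own GapmeRs, NETO1 overlapped the controls, and BRINP2 lay at 4.48 to 5.79 CPM against 6.22 to 7.79 CPM.

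The first window asked whether genes around lnc-NKX2-3-1 moved when it was knocked down. The target itself (ENSG00000228778, chr10:99526948-99528467, plus strand) is a lncRNA of 2 exons that lies inside LINC01475 on the opposite strand and 4.5 kb upstream of NKX2-3. It had 17 and 23 counts in medium and 10, 12 and 6 with the NTC. With GapmeR1 it had 4 and 1 counts, and with GapmeR2 4, 3 and 0. All 5 knockdown libraries lay below all controls, and the mean was 0.116 ± 0.0844 CPM (SD, n = 5) against 0.764 ± 0.354 CPM (SD, n = 5). Pooled over both GapmeRs, 0 of 14851 genes were called by edgeR (0.00%), with 1104 at an unadjusted p under 0.05, and DESeq2 called 11. The log2 fold change of the target was -2.59 (SE 0.504, adjusted p = 0.393), and in an exact permutation test of this single value, two-sided, p was 0.00794, the smallest that 5 against 5 allows.

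NKX2-3 (ENSG00000119919, chr10:99532942-99536524, plus strand), which encodes a homeobox transcription factor of the spleen and of gut lymphoid tissue, is the nearest protein-coding gene. Its levels in the controls were 1.02 and 0.822 CPM in medium and 0.905, 1.07 and 0.434 CPM with the NTC. With GapmeR1 they were 0.412 and 0.47 CPM, and with GapmeR2 0.311, 0.390 and 0.412 CPM. The knockdown libraries were thus at the low end, with the NTC library of replicate 3 as the only control within their range. The difference of mean log2 CPM was -0.88 (5 against 5, two-sided exact permutation p = 0.0159, 1 of 4 single values tested in this way, unadjusted). Restricted to exchanges between libraries of the same replicate number, which was taken to mark the day of the experiment, the permutation p was 0.0278. With 7 to 19 counts in these libraries the gene was under the low-count filter of the pooled fit.

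In the pooled comparisons the replicate block called no member for lnc-NKX2-3-1 (0.0135% of genes), and the target alone for lnc-TIMM21-5 (1.32%) and lnc-ASTN1-1 (0.881%).

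NKX2-3 entered the fits of the single GapmeRs, where it was not called without the replicate block. Its knockdown libraries were under the count limit there and against the other GapmeRs, so it passed the filter only through the other arm. The tests for a lower level are not independent of that entry, and their p-values are given with this limit. The log2 fold change was -0.93 (interval -1.79 to -0.07, edgeR adjusted p = 0.129) with GapmeR1 and -1.19 (interval -1.95 to -0.42, adjusted p = 0.913) with GapmeR2. With the replicate block the GapmeR1 value was -1.10 and was called (adjusted p = 0.0235), whereas the GapmeR2 value was -1.13 and was not (adjusted p = 0.0728). Against the 17 libraries with GapmeRs to the other 3 lncRNAs, all 5 knockdown libraries lay lower (0.398 ± 0.0562 CPM, SD, n = 5, against 0.740 ± 0.215 CPM, SD, n = 17). There the log2 fold change was -0.88 (SE 0.224, unadjusted p = 0.000544, edgeR adjusted p = 0.143), while the target was at -2.28 (adjusted p = 0.00841) among 6 genes called of 15517 (0.0387%). Leaving out any 1 replicate number ended that call of the target (adjusted p between 0.0598 and 0.595). With the block the target was again the only member called, among 0.522% of all genes. Fitted together with all 27 libraries, the same contrast for NKX2-3 had an edgeR adjusted p of 0.0185, in a fit that tested 16268 genes and called 1171 of them.

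LINC01475 (chr10:99526350-99531177, minus strand) holds the target within its bounds, on the other strand. Its mean was 5.57 ± 0.621 CPM (SD, n = 5) after knockdown, and the controls had 6.18 ± 0.721 CPM (SD, n = 5). The interval of its log2 fold change, -0.15, was -0.42 to 0.12. Counted without regard to strand, the target had 520 counts over all libraries in place of 279, and LINC01475 had 2372 in place of 2947. With unstranded counts the target was no longer called with GapmeR1 (log2 fold change -0.98, edgeR adjusted p = 0.0731).

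The other 7 members that passed the filter in the pooled comparison are genes of metabolism and transport, with 1 scaffold gene and 1 divergent lncRNA. GOT1 is the cytosolic aspartate aminotransferase, COX15 makes the heme of cytochrome c oxidase, SLC25A28 (mitoferrin-2) imports iron into mitochondria, and ABCC2 exports organic anions. Their log2 fold changes were -0.14 for GOT1, -0.12 for COX15, 0.10 for SLC25A28, 0.07 for ABCC2, -0.15 for GOT1-DT, 0.02 for CUTC and -0.09 for DNMBP, which encodes a guanine nucleotide exchange factor for CDC42. None of these 7 was called, with adjusted p between 0.692 and 0.955. The pooled intervals reached from -0.49 at the lowest (GOT1-DT) to 0.40 at the highest (ABCC2), within 1.5-fold in either direction. That bound is for the pool and not for each GapmeR. With GapmeR1 alone the intervals reached beyond 1.5-fold, to -0.81 for DNMBP and -0.65 for GOT1-DT. The median over the 8 members other than the target was -0.10, beside 0.0007 over all genes tested.

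**Figure D2:**
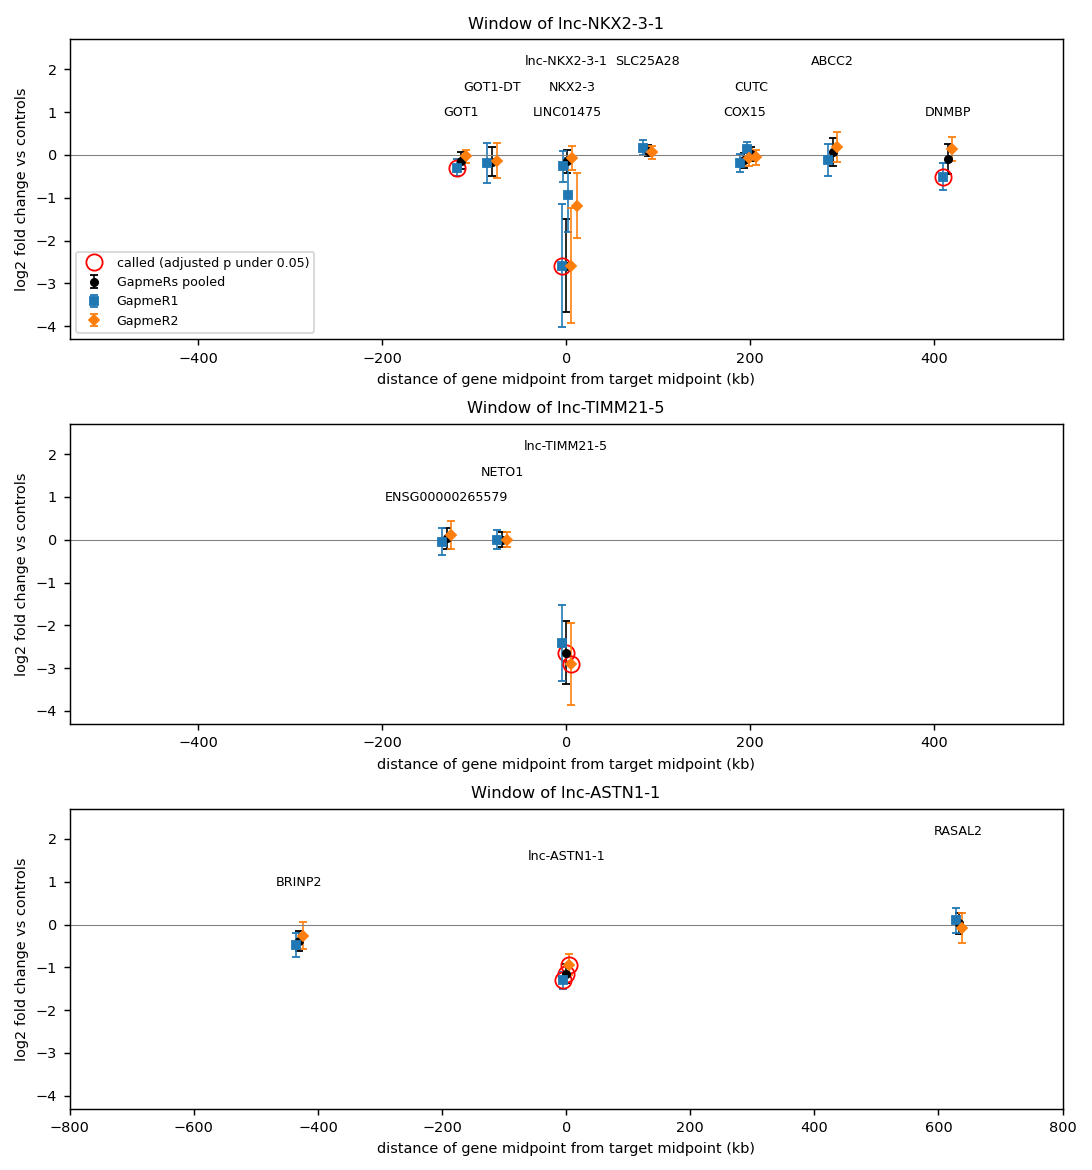
Log2 fold change against controls (vertical axes) with 95% intervals for each fitted member, by distance in kb of the gene's midpoint from the midpoint of its target, for both GapmeRs pooled (circles), GapmeR1 (squares) and GapmeR2 (diamonds), with called values ringed. In the chromosome 10 panel GOT1 (-0.30) and DNMBP (-0.50) are ringed with GapmeR1 alone, and in the chromosome 18 and chromosome 1 panels no member other than the target is ringed.

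The GapmeRs to lnc-NKX2-3-1 were then taken one at a time, since they differed widely in the number of genes that changed. With GapmeR1, 3 of 10 fitted members fell, the target, DNMBP and GOT1, in a comparison where 2713 of 15402 genes were called (17.6% in either direction, 10.2% lower). That number was 382 without replicate number 1, 601 without 2 and 3618 without 3. Without the target this is 2 of 9, to be read beside the 10.2% of all genes that fell. DNMBP was at 11.6 and 10.9 CPM against 13.3 to 19.3 CPM in the controls, with a log2 fold change of -0.50 (SE 0.142, edgeR adjusted p = 0.0267). GOT1 was at 83.8 and 64.4 CPM against 87.2 to 96.2 CPM, with -0.30 (SE 0.0947, adjusted p = 0.0468). All libraries of GapmeR1 were below all controls for both genes. The share of all genes with such a separation was not computed, so it is not read as a trait of these genes. With the replicate block 5 members were called, COX15 (log2 fold change -0.25, adjusted p = 0.000677) and NKX2-3 in addition, but so were 36.4% of all genes.

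With GapmeR2, which pairs with the bases directly next to those of GapmeR1, 0 of 15126 genes were called by edgeR (0.00%, 615 at an unadjusted p under 0.05, and 9 by DESeq2). DNMBP was at 16.5, 16.1 and 20.4 CPM, within and above the controls, and GOT1 at 93.8, 82.7 and 91.4 CPM. The target had almost the same level as with GapmeR1, 0.115 ± 0.0997 CPM (SD, n = 3), where GapmeR1 gave 0.117 ± 0.0929 CPM (SD, n = 2). With the replicate block it was called (log2 fold change -2.47, adjusted p = 0.00197), as were 412 genes (2.72%).

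The direct comparison of both GapmeRs called 1994 of 15376 genes (13.0%). Of the members DNMBP passed, lower with GapmeR1 by a log2 fold change of -0.65 (SE 0.143, edgeR adjusted p = 0.0158), and the target did not differ measurably (0.0012, interval -2.42 to 2.42). The replicate block called GOT1 (-0.25) and COX15 (-0.21) as well, among 41.8% of all genes and with 1 residual degree of freedom. Without replicate number 1 or 2, which leaves 1 library of GapmeR1, DNMBP was not called against the controls or against GapmeR2. Nor was the target called against the controls (adjusted p = 0.220 and 0.356), or GOT1, at -0.49 (adjusted p = 0.0897) and -0.16 (adjusted p = 0.510). GOT1 also lost its call with NTC as the only control (adjusted p = 0.0781) and with library sizes scaled by RLE in place of TMM (adjusted p = 0.0501).

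**Figure D3:**
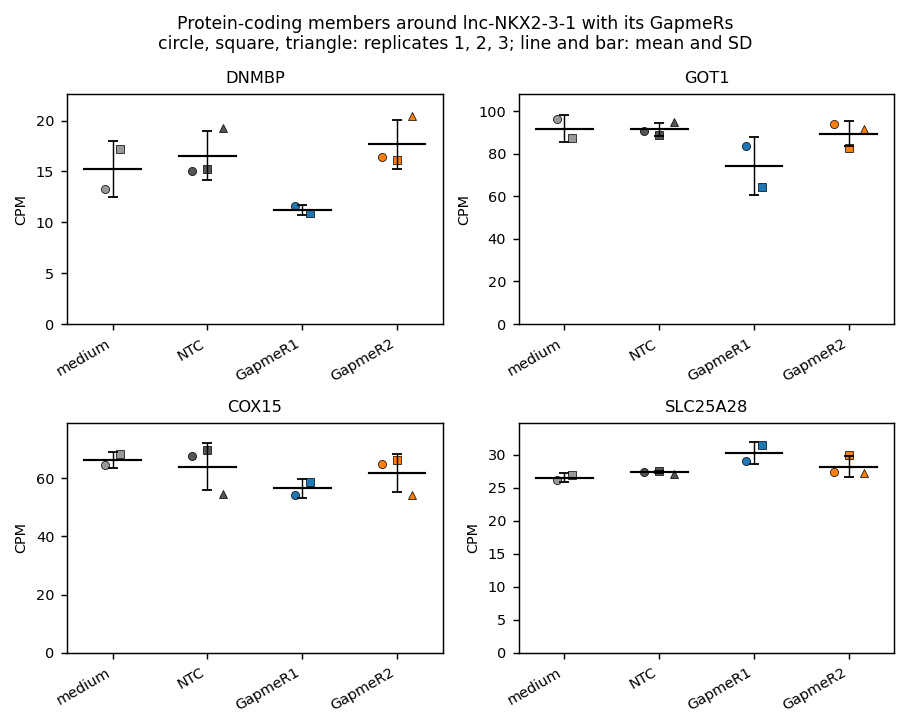
Level in CPM (vertical axes, from 0) of DNMBP, GOT1, COX15 and SLC25A28 in each library of medium, NTC, lnc-NKX2-3-1 GapmeR1 and lnc-NKX2-3-1 GapmeR2, with the mean and SD of each group. Both GapmeR1 libraries of DNMBP, at 11.6 and 10.9 CPM, lie under all controls and under all 3 GapmeR2 libraries.

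NKX2-3 is known for the vascular addressin MADCAM1 and for lymphocyte homing, and 9 homing genes were followed for that reason. With GapmeR1, 2 of 6 fitted genes rose and 0 fell, where 7.41% of all genes rose. They were the chemokine receptor gene CXCR4 (log2 fold change 0.55, edgeR adjusted p = 0.00171) and the integrin ITGB7 (0.65, adjusted p = 0.0362). With GapmeR2 0 of 6 were called by edgeR, and CXCR4 was at -0.01 and ITGB7 at 0.47. CXCR4 differed between the GapmeRs (0.57, adjusted p = 0.015, by the same edgeR test). MADCAM1 itself was at -0.13 and -0.16 with GapmeR1 and GapmeR2, and neither was called. Under the block 3 of 6 were called with GapmeR1, where 36.4% of all genes were, and 1 of 6, ITGB7 (0.41, adjusted p = 0.0332), with GapmeR2, where 2.72% were. Pooled over both GapmeRs 0 of 5 fitted genes were called.

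The second window asked the same of lnc-TIMM21-5 (NETO1-DT, ENSG00000263958, chr18:72868388-72881404, plus strand). This lncRNA starts back to back with NETO1 (ENSG00000166342, chr18:72742314-72868146, minus strand), an auxiliary subunit of kainate receptors that is best known in neurons. The 241 bases between both starts are shown because transcription of both RNAs begins at their edges. They are chr18:72868147-72868387 of GRCh38 on the plus strand, with each CG in capitals.
NETO1 and lnc-TIMM21-5 shared interval: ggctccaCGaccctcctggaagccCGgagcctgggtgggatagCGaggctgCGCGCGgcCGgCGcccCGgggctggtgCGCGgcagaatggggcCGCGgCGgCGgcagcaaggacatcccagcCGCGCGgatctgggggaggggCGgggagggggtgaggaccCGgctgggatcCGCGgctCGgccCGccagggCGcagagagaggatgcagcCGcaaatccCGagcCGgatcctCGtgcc

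This stretch had 76.3% G and C and 29 CG dinucleotides. The 300-base promoter of lnc-TIMM21-5, from 250 bases before to 50 after its start, had 34, a number that 15.6% of 35116 RefSeq promoters of that length reached, with a median of 14.

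lnc-TIMM21-5 had 20 and 40 counts in medium and 32, 27 and 20 with the NTC. It had 2, 10 and 6 counts with GapmeR1. With GapmeR2 it had 7, 5 and 1. All 6 knockdown libraries lay below all controls. The mean was 0.247 ± 0.164 CPM (SD, n = 6) against 1.57 ± 0.485 CPM (SD, n = 5). The log2 fold change was -2.64 (SE 0.348, edgeR adjusted p = 0.0168), and the target was the only gene called of 15029 (0.00665%). Leaving out single libraries moved the adjusted p between 0.00625 and 0.131, and 5 of 11 such omissions ended the call (NTC replicates 1 and 2, medium replicate 2, GapmeR1 replicate 1, GapmeR2 replicate 2). The two-sided exact permutation p was 0.00216, the smallest possible with 6 against 5.

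For NETO1 no change was found while its divergent partner fell. It was at 29.7 and 33.4 CPM in medium and 29.6, 34.2 and 30.9 CPM with the NTC. With GapmeR1 it was at 35.5, 33.6 and 25.8 CPM, and with GapmeR2 at 32.5, 33.9 and 28.2 CPM. The knockdown libraries lay on both sides of the controls. The log2 fold change was 0.0015 (interval -0.17 to 0.17, edgeR adjusted p = 0.999), which left a change of more than 1.13-fold in either direction outside the interval. The lncRNA ENSG00000265579 lies inside NETO1 on the same strand, and its reads and those of NETO1 cannot be told apart with certainty. Its mean was 6.43 ± 0.725 CPM (SD, n = 6) after knockdown, where the controls had 6.28 ± 0.962 CPM (SD, n = 5). The log2 fold change was 0.04 (interval -0.22 to 0.29).

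Taken singly, GapmeR2 gave the larger estimate for the target, -2.91 (edgeR adjusted p = 0.0357, 9 of 15166 genes called, 0.0593%), and GapmeR1 gave -2.405 (adjusted p = 0.0652, 12 of 15194 genes called, 0.0790%, the target not among them). The GapmeR1 value was called with the replicate block (-2.33, adjusted p = 4.83e-05), as were 2.79% of all genes, and the GapmeR2 value stayed called among 0.330%. Without the block the GapmeR2 call was lost on leaving out replicate number 1 or 2 (adjusted p = 1.000 for both) and with NTC as the only control (adjusted p = 0.0859). The difference between both was 0.51 with an interval of -0.99 to 2.005, in a comparison with 12 of 15314 genes called (0.0784%) and none of them a member. For NETO1 the single values were 0.0035 with GapmeR1 and 0.0005 with GapmeR2, with intervals of -0.22 to 0.22 and -0.18 to 0.18. Against the GapmeRs of the other 3 lncRNAs the target was the 1 gene called of 15371 (0.00651%), at -2.51 (adjusted p = 0.000329, but 0.369 without replicate number 1), and NETO1 was at -0.18 (interval -0.41 to 0.04).

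The third window lay around lnc-ASTN1-1 (ENSG00000227579, chr1:177392667-177920152, minus strand), a lncRNA gene of 527.5 kb with only 2742 exonic bases. It was the most abundant of the 3 targets, at 26.99 and 24.8 CPM in medium and 26.6, 24.9 and 23.3 CPM with the NTC. GapmeR1 gave 10.7, 9.75 and 10.3 CPM, and GapmeR2 gave 14.6 and 11.9 CPM. All 5 knockdown libraries were lower than all controls, those of GapmeR1 lowest. The log2 fold change was -1.14 (SE 0.100, edgeR adjusted p = 0.000209), with 2 of 14755 genes called (0.0136%). The two-sided exact permutation p was 0.00794, the smallest possible.

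BRINP2 (ENSG00000198797, chr1:177170958-177282422, plus strand), a gene of the BMP/retinoic acid-inducible neural-specific family, lies 110.2 kb beyond the 3′ end of the lncRNA. It was at 6.72 and 6.79 CPM in medium and 6.22, 7.79 and 6.51 CPM with the NTC. With GapmeR1 it was at 5.16, 5.05 and 4.48 CPM, and with GapmeR2 at 5.58 and 5.79 CPM. No knockdown library reached the lowest control. The pooled log2 fold change was -0.38 (interval -0.61 to -0.16, unadjusted p = 0.00281, edgeR adjusted p = 0.659), so it was not called, in a comparison where 832 genes had an unadjusted p under 0.05.

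With GapmeR1 alone the value of BRINP2 was -0.48 (edgeR adjusted p = 0.174), among 108 of 15034 genes called (0.718%). The replicate block gave -0.46 and a call (adjusted p = 0.0215), among 731 genes (4.86%). With GapmeR2 it was -0.26 (interval -0.57 to 0.05), in a comparison where 2 of 15346 genes were called (0.0130%). The target was called with either GapmeR, at -1.30 (adjusted p = 1.15e-05) and -0.94 (adjusted p = 0.0298). The GapmeR2 call was lost on leaving out any 1 replicate number (-1.04 to -0.82, adjusted p between 0.0857 and 0.961) and with NTC as the only control (-0.92, adjusted p = 0.384). The direct comparison of both GapmeRs called 22 of 15069 genes (0.146%) and no member, with -0.37 for the target (interval -0.69 to -0.04) and -0.22 for BRINP2 (interval -0.61 to 0.17). The replicate block called no member either, among 4.29% of all genes.

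RASAL2, a RAS GTPase-activating protein gene 174.0 kb upstream of the lncRNA, was the third member that passed the filter. Its mean was 6.10 ± 0.592 CPM (SD, n = 5) after knockdown, where the controls had 5.95 ± 0.756 CPM (SD, n = 5), and the interval of its log2 fold change of 0.03 was -0.22 to 0.28. ASTN1, which gave the lncRNA its name and encodes a neuronal adhesion protein, had 78 counts over the 27 libraries, 1 to 7 in each control and 1 to 3 in each knockdown library, and was under the filter. SEC16B, 3.8 kb from the other end of the target, had 2 counts in all. At this depth no difference was detectable for either gene.

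Against the GapmeRs of the other 3 lncRNAs, BRINP2 was at -0.05 (interval -0.55 to 0.45). That interval held its pooled value of -0.38 against controls, so the comparison could not tell whether its level was particular to its own window. The other arm included lnc-NKX2-3-1 GapmeR1 and lnc-RTN4R-1 GapmeR2, with which BRINP2 was called lower than in controls. With the remaining GapmeRs it was not called. It was at -0.17 and -0.18 with lnc-TIMM21-5 GapmeR1 and GapmeR2, -0.20 with lnc-NKX2-3-1 GapmeR2 and 0.04 with lnc-RTN4R-1 GapmeR1. In the same comparison lnc-ASTN1-1 was the 1 gene called of 15517 (0.00644%), at -0.86 (edgeR adjusted p = 0.0340). That call of lnc-ASTN1-1 was lost with the block (adjusted p = 0.103), without a low-count filter (adjusted p = 0.134) and on leaving out any 1 replicate number (-0.96 to -0.80, adjusted p between 0.284 and 0.830). The levels of the members were then followed through all 10 groups, and the tests that follow were chosen with those values seen.

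**Figure D4:**
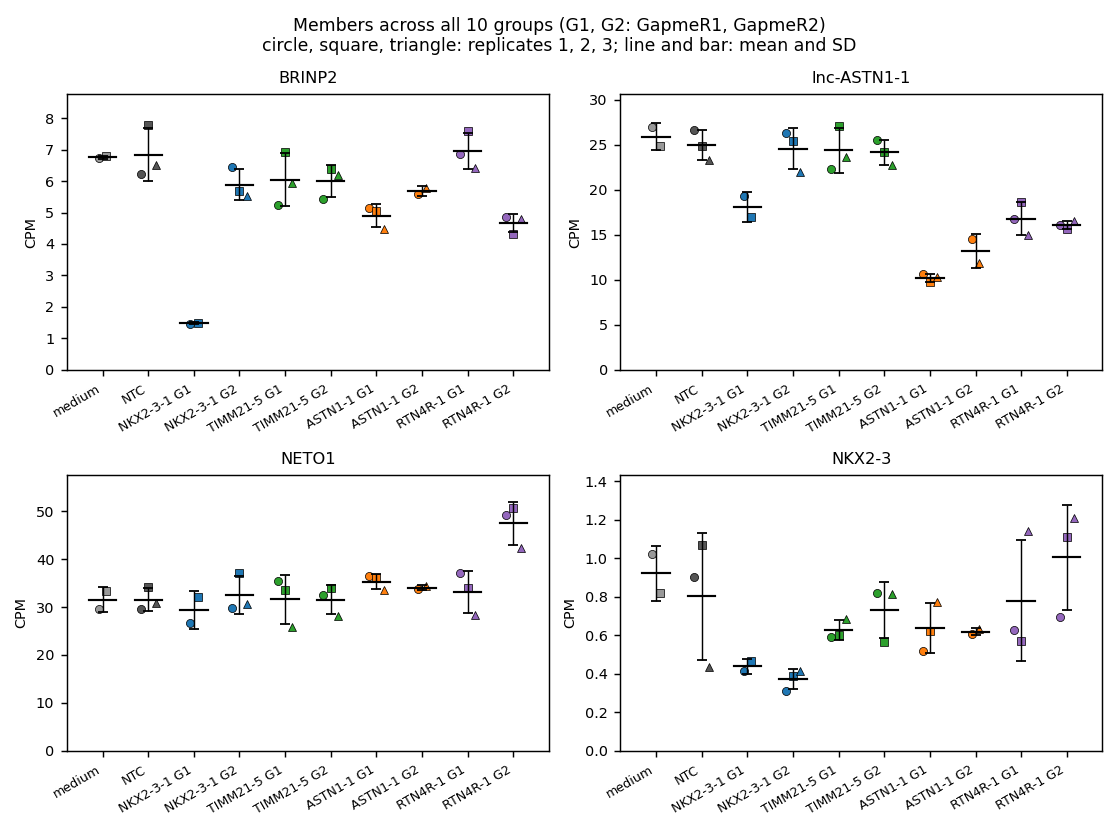
Level in CPM (vertical axes, from 0) of BRINP2, lnc-ASTN1-1, NETO1 and NKX2-3 in every library of all 10 groups, with the mean and SD of each group. BRINP2 is lowest with lnc-NKX2-3-1 GapmeR1 (1.47 and 1.502 CPM), lnc-ASTN1-1 is lowest with its own GapmeRs and next with those to lnc-RTN4R-1, and NETO1 is highest with lnc-RTN4R-1 GapmeR2 (42.4 to 50.8 CPM).

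With lnc-NKX2-3-1 GapmeR1, BRINP2 was at 1.47 and 1.502 CPM against 6.22 to 7.79 CPM in the controls. This was a log2 fold change of -2.18 (SE 0.180, edgeR adjusted p = 3.39e-06), a level 0.220 times that of the controls and the lowest of BRINP2 in any group. With lnc-NKX2-3-1 GapmeR2 it was at 6.45, 5.68 and 5.53 CPM and was not called (-0.20, interval -0.46 to 0.06). The direct difference between both GapmeRs was -1.98 (SE 0.207, adjusted p = 0.00021). BRINP2 held no match to lnc-NKX2-3-1 GapmeR1 with 2 or fewer mismatches. lnc-ASTN1-1 fell less with the same GapmeR, to 19.3 and 16.9 CPM, and was lower than with GapmeR2 by -0.44 (SE 0.123, adjusted p = 0.0424). Both calls of lnc-ASTN1-1 were lost without replicate number 1 or 2 (adjusted p between 0.131 and 0.552).

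BRINP2 also fell with lnc-RTN4R-1 GapmeR2, at 4.87, 4.33 and 4.78 CPM (log2 fold change -0.54, SE 0.130, edgeR adjusted p = 0.0224), among 996 of 15050 genes called (6.62%). With lnc-RTN4R-1 GapmeR1, which called 241 of 15186 genes (1.59%), it was at 6.87, 7.58 and 6.42 CPM and was not called (0.04, interval -0.22 to 0.29). The direct difference was 0.58 (SE 0.140, adjusted p = 0.0417), in a comparison that called 5.92% of 14904 genes. lnc-ASTN1-1 fell with both lnc-RTN4R-1 GapmeRs (-0.59 and -0.65) and did not differ measurably between them (0.07, interval -0.17 to 0.31). Within introns of lnc-ASTN1-1, lnc-RTN4R-1 GapmeR1 had 2 matches with 2 mismatches and GapmeR2 had none. Across all groups BRINP2 was lowest with lnc-NKX2-3-1 GapmeR1 and lnc-ASTN1-1 with its own GapmeRs, and a link between both was not tested. With its own GapmeR1 lnc-ASTN1-1 had 10.2 ± 0.457 CPM (SD, n = 3) and BRINP2 4.90 ± 0.365 CPM. With its own GapmeR2 lnc-ASTN1-1 had 13.2 ± 1.91 CPM (SD, n = 2) and BRINP2 5.68 ± 0.152 CPM.

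NETO1 rose in 1 group, and not in that of its divergent partner. With lnc-RTN4R-1 GapmeR2 it was at 49.3, 50.8 and 42.4 CPM, above all 5 controls, with a log2 fold change of 0.59 (SE 0.0824, edgeR adjusted p = 0.000502), a 1.51-fold level. ENSG00000265579 inside it rose alike, at 9.21, 8.94 and 10.1 CPM (0.59, SE 0.140, adjusted p = 0.0215). With lnc-RTN4R-1 GapmeR1 NETO1 was at 37.1, 33.9 and 28.4 CPM (0.07, interval -0.12 to 0.27). The direct difference of NETO1 between both GapmeRs was -0.52 (SE 0.111, adjusted p = 0.0259). With NTC as the only control ENSG00000265579 was no longer called (adjusted p = 0.0809), nor was BRINP2 with this GapmeR (adjusted p = 0.0894), and without replicate number 1 NETO1 was at 0.50 (adjusted p = 0.0825). Without replicate number 1 or 2 the calls of BRINP2 and ENSG00000265579 with this GapmeR and of BRINP2 and NETO1 between both GapmeRs were lost (adjusted p between 0.167 and 0.440), as was that of lnc-ASTN1-1 with lnc-RTN4R-1 GapmeR1 (adjusted p = 0.406 and 0.0892). In these libraries lnc-TIMM21-5 was at 1.97, 2.61 and 1.27 CPM, overlapping the controls. The comparisons with the controls share those 5 libraries.

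The NTC was compared with medium as a measure of what a GapmeR does without a target. Of 15100 genes, 0 were called by edgeR (0.00%, 670 at an unadjusted p under 0.05) and 0 by DESeq2. The replicate block called 231 genes (1.53%) and no member, with 1 residual degree of freedom, and without replicate number 1, 73 genes were called. The largest difference among the members was that of lnc-NKX2-3-1, with a mean of 0.548 ± 0.215 CPM (SD, n = 3) for the NTC, where medium had 1.09 ± 0.244 CPM (SD, n = 2). On the log2 scale the difference was -0.99 (interval -1.89 to -0.10, edgeR adjusted p = 0.923). All 3 NTC libraries were lower than both of medium. For NKX2-3 the value was -0.21 (interval -1.11 to 0.68), for NETO1 0.01 (interval -0.24 to 0.25) and for BRINP2 0.02 (interval -0.35 to 0.39).

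The members that did not pass the filter were mostly close to silent. ENTPD7, an endo-apyrase gene, had 39 counts in all, SLC25A28-DT 175 and the pseudogene EBAG9P1 116, and the levels of all 3 overlapped between the lnc-NKX2-3-1 GapmeRs and the controls. RPL7P36 had 6 counts. DNMBP-AS1, on the strand opposite to DNMBP, had 2. On chromosome 18 MIR548AV had 6 counts and HNRNPA1P11 and LINC02582 1 each. On chromosome 1 the pseudogene ENSG00000213058 had 21, CRYZL2P-SEC16B 9 and LINC01645, which overlaps lnc-ASTN1-1 on the opposite strand, 1. A count of 0 over all 27 libraries, as for HPSE2, CNNM1 and CBLN2, allows a level of up to 0.00585 CPM (3 counts of 512518412), which covers counting error only.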

How the data were processed

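Per the labels, total RNA of REH cells was sequenced as stranded, ribodepleted libraries, whereas the study's methods describe poly-A purified ones. The authors aligned reads to hg38 with STAR and deposited its table of counts per gene for each library. The annotation release is not given in the sources used here. The sense column, with 95.27% of the counts of both strand columns, was used, and libraries had 14627110 to 22750945 counts in it. Of 60619 gene IDs, 56434 matched GENCODE 44, which gave coordinates and names. The 29 members and all gene lists were chosen with earlier results of these data known.

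Differences were tested with edgeR 4.0.16 in R 4.3.3 (TMM, quasi-likelihood test with robust estimation, Benjamini-Hochberg), on the libraries compared, after filterByExpr (minimum count 10, minimum total 15). The targets were always kept. DESeq2 1.42.0 was an alternative. For 4 single values, mean log2 CPM (prior count 2) was compared by a two-sided exact permutation test. Adjusted p-values are from these fits. Some of the fits were also run on simulated counts, with changes planted in well-counted genes only and no effect of the day. Those runs do not bear on the rarest members or on differences between days.

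Replicates were made on different days per the methods, so replicate numbers were taken to pair libraries. Deviations from group means correlated by 0.263 on average between groups for the same number (109 pairs, lowest -0.035) and by -0.130 for different numbers (218 pairs). The fit without the block was the main one, and blocked values are given where they changed a call. There was no medium library of replicate 3.

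Values are given for the targets, for every member past the filter in its own pooled comparison, for protein-coding members below it, and for the 3 other members per window with the largest counts or within 10 kb of the target. GapmeR sites were exact matches to GRCh38 and to GENCODE transcripts, and promoters were those of RefSeq on GRCh38. Alternatives were another normalisation, no or a stricter filter, the NTC as the only control, 1 fit of all libraries, unstranded counts, the replicate block and the omission of each library or replicate number. A further gene of the list of homing genes is not reported here.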

Additional observations from a re-analysis of the deposited data

Results flagged for a closer look

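In 1 of 32 groups of values examined for a library far from the others, such a library was found, and chance alone gives about 1 in 20. It was medium replicate 1 for ENSG00000265579 in the controls, at 4.62 CPM, with the next library at 6.41 CPM and the highest at 7.07 CPM. The other values concern GapmeRs to the same lncRNA whose direct comparison by edgeR passed the threshold, with log2 fold changes as GapmeR1 minus GapmeR2. Between the lnc-NKX2-3-1 GapmeRs they were -0.65 for DNMBP, -1.98 for BRINP2 and -0.44 for lnc-ASTN1-1. Between the lnc-RTN4R-1 GapmeRs they were 0.58 for BRINP2 and -0.52 for NETO1. The summed myeloid markers also differed between the GapmeRs of each of these 2 lncRNAs, and their part in these differences was not tested.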

How the results depend on the processing

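Of 381 alternative values for single members with their own GapmeRs, 345 stayed on their side of the threshold, 28 lost the call, 8 gained it and 0 called values reversed, while 21 uncalled values changed sign; of 137 for members with other lncRNAs' GapmeRs, the last chosen after seeing the data, the numbers were 119, 17, 1 and 0. With lnc-NKX2-3-1 GapmeRs pooled, 1 member was called by DESeq2 (target -2.67), 1 without a low-count filter (-2.60), 2 in 1 fit of all libraries (target -2.50, and NKX2-3) and 4 with the replicate block added to that fit (-2.51, an alternative chosen after seeing the data, as in each later mention). These 2 fits of all libraries called 860 and 3071 of 16268 genes, DESeq2 11 of 14851 and the fit without a filter 5 of 30994. For NKX2-3 the edgeR fit without a filter gave -1.08 (adjusted p = 0.610). A minimum of 10 counts in every library removed the lnc-NKX2-3-1 and lnc-TIMM21-5 targets from the fits, leaving 0 calls in the pooled and GapmeR2 comparisons of lnc-TIMM21-5 and in the comparisons of both with other GapmeRs. With NTC as the only control, 0 members were called for lnc-TIMM21-5 pooled (target -2.60, edgeR adjusted p = 0.134), for its GapmeR2 and for lnc-ASTN1-1 GapmeR2. With the replicate block 5 members were called for lnc-NKX2-3-1 GapmeR1, 1 for its GapmeR2, 3 between them, 1 for lnc-TIMM21-5 GapmeR1, 2 for lnc-ASTN1-1 GapmeR1 and 0 for lnc-ASTN1-1 against other GapmeRs; the block changed no other count of called members. With 1 fit of all libraries and the block, counts of members are given with the number called of all 16268 genes in parentheses. They were 2 for lnc-ASTN1-1 pooled (489), 2 for lnc-NKX2-3-1 GapmeR2 (515), 1 for lnc-TIMM21-5 GapmeR1 (484) and 2 for lnc-ASTN1-1 GapmeR1 (776). They were 3 between the lnc-NKX2-3-1 GapmeRs (5439), and, against other GapmeRs, 3 for lnc-NKX2-3-1 (3765) and 2 for lnc-TIMM21-5 (1586). Without the block, that fit gave 1 for lnc-TIMM21-5 GapmeR1 (34), 2 for lnc-ASTN1-1 GapmeR1 (196) and 2 for lnc-NKX2-3-1 against other GapmeRs (1171). DESeq2 called 1 for lnc-TIMM21-5 GapmeR1, among 39 of 14604 genes. Without a filter 1 was called for lnc-NKX2-3-1 GapmeR2 (12 of 30147 genes) and 1 for lnc-TIMM21-5 GapmeR1 (51 of 30167 genes). It was 0 for lnc-ASTN1-1 against other GapmeRs, and unstranded counts gave 0 for lnc-NKX2-3-1 against other GapmeRs. DESeq2 gave no adjusted p for lnc-NKX2-3-1 in that last comparison. Omitting single libraries or replicate numbers gave 0 to 1 calls for lnc-TIMM21-5 pooled (target -2.95 to -2.42), 0 to 5 for lnc-NKX2-3-1 GapmeR1, 0 to 1 for lnc-TIMM21-5 GapmeR2, 0 to 0 for lnc-ASTN1-1 GapmeR2, 0 to 1 between the lnc-NKX2-3-1 GapmeRs, and, against other GapmeRs, 0 to 0 for lnc-NKX2-3-1, 0 to 1 for lnc-TIMM21-5 and 0 to 0 for lnc-ASTN1-1. The cause of these changes was not tested. Depth limits the rarest members: lnc-NKX2-3-1 and NKX2-3 had at most 23 counts in the libraries of their own comparison with controls.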
